A study of Mus musculus with 81 samples.

Results

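MYSERV elements are mouse repeats that RepeatMasker, the program behind the repeat annotation used here, lists as internal sequence of endogenous retroviruses of the ERVK class. They were chosen by name alone, as every locus whose species name begins with MYSERV, a species being the name that RepeatMasker gives to a kind of repeat. This rule took 7106 of the 970384 LTR loci and 3 of the 680 species, namely 1428 loci of MYSERV-int, 2515 of MYSERV16_I-int and 3163 of MYSERV6-int. Endogenous retroviruses are remnants of retroviruses that once entered the germ line, and an intact copy holds the viral genes gag, pol and env between a pair of long terminal repeats (LTRs) that carry the promoter. In the fetal male germ line DNA methylation is erased and later laid down anew, and repressive histone marks and piRNAs, small RNAs bound by PIWI proteins, act against such elements. A copy that lies in an intron is also transcribed as part of the precursor RNA of its host gene.

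The RNA came from E18.5 fetal testes of OG2 mice, which carry EGFP under the promoter and distal enhancer of Pou5f1 (Oct4) on a C57BL/6J background. Both exposures were given to F0 dams only, in drinking water with 0.5% carboxymethyl cellulose, from 7 days before mating until weaning: 50 nM tributyltin (TBT), an organotin compound, or 0.1% DMSO as the vehicle control. F1 male fetuses were themselves exposed in utero. F3 male fetuses descended from other F1 animals, raised and mated with non-siblings within each lineage, and received no exposure. FACS divided the testicular cells into EGFP-positive P4 and P5 germline cells, which differ in side scatter, and EGFP-negative P6 somatic cells, which are a mixture of the other cell types of the testis. RNA was sequenced in 62 libraries. The P4 and P6 populations of F1 each had 5 DMSO and 7 TBT libraries, P5 of F1 had 4 and 7, and every F3 population had 4 and 5. Methylated DNA of P6 cells was enriched with a methyl-CpG-binding domain (MBD) protein in 3 and 4 libraries of F1 and in 5 and 7 of F3. The labels do not say whether libraries of 1 group came from separate litters, so p-values measure only the spread between these libraries. The F1 germline libraries are numbered 45-3, 45-4, 45-5, 47-1, 47-3, 47-4 and 47-5 for TBT and 43-4, 43-5, 44-1, 44-3 and 48-4 for DMSO. No number before the hyphen occurs in both exposures, and what it marks is not given. A random effect of this number was fitted to species totals only, so the values of single loci take the libraries as independent.

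Between 246520 and 8161548 reads per RNA library were counted at LTR loci, and MYSERV loci took 0.571% to 1.09% of them. Values are in CPM, read counts relative to the reads of the library at LTR loci, with TMM factors that align the libraries of a table. The labels were checked at LTR loci inside marker genes: the summed value of germ cell genes (9 of the 11 listed hold LTR loci) was 1330 to 1728 CPM in F1 P4, 881 to 1350 in F1 P5 and 4.80 to 13.1 in F1 P6 cells, and that of Sertoli cell genes (3 of 6) was 5.12 to 21.7, 10.2 to 45.7 and 316 to 453 CPM. Leydig cell genes (3 of 6) summed to 3.84 to 122, 5.49 to 36.2 and 77.8 to 273 CPM in the same populations, endothelial genes (4 of 4) to at most 19.8 and blood cell genes (2 of 4) to at most 5.96 CPM. The F3 germline libraries varied more, with germ cell sums from 338 CPM in P4 cells and 66.0 CPM in P5 cells upwards. TBT replicates 5 and 9 of F3 P4 and TBT replicate 5 of F3 P5 held the fewest reads. The share of LTR reads that fell outside annotated genes was 0.999% to 6.95% in F1 P6 cells, where TBT replicates 7 and 8 stood at 6.79% and 6.95%, and 6.06% to 31.1% in F3 P5 cells. Species totals and P5 against P4 in F3 were also fitted without these libraries, as were the named loci that still passed the filter on low values. In bulk samples, fewer cells of a type and less RNA per cell cannot be told apart.

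Sequences of 5 loci are shown because later results turn on them, each as the reference genome (RefSeq, GRCm38) has it on the plus strand, in lower case with CpG sites, the targets of DNA methylation, in capitals. The MYSERV-int locus beside Fv1, a gene for resistance to murine leukaemia viruses, is shown by the first 300 of its 826 bases, chr4:147870982-147871281, with 6 CpG sites. The MYSERV-int locus in Fkbp6, a gene for a chaperone partner needed in male meiosis, is shown whole at 133 bases, chr5:135321489-135321621, and holds 0 CpG sites. The MYSERV16_I-int locus is the one of the highest level per kb outside genes in its species, chr3:15256434-15256733, 300 of 340 bases with 1 CpG site. Both MYSERV6-int loci lie next to each other between Luc7l2 and Klrg2, at chr6:38613742-38614041 (300 of 381 bases) and chr6:38614132-38614431 (300 of 1629 bases), and neither stretch holds a CpG site.
MYSERV-int beside Fv1: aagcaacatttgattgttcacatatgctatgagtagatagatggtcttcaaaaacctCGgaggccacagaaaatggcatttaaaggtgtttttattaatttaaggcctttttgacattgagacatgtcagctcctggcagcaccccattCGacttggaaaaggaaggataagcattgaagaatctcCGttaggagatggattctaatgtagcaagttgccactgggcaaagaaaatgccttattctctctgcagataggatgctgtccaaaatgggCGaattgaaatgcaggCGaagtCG
MYSERV-int in Fkbp6: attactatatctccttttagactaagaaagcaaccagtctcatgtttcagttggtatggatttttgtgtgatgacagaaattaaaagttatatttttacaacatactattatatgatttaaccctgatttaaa
MYSERV16_I-int on chromosome 3: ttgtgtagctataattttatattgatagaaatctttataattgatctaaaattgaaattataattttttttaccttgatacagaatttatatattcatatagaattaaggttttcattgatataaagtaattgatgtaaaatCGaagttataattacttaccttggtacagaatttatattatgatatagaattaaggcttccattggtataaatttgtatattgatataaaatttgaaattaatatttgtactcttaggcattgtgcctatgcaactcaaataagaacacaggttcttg
MYSERV6-int on chromosome 6, 381 bases: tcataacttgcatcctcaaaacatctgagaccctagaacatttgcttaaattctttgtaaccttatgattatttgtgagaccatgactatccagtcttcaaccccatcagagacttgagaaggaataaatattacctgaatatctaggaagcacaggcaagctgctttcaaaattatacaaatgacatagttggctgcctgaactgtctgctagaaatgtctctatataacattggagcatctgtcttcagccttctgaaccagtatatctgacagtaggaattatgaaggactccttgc
MYSERV6-int on chromosome 6, 1629 bases: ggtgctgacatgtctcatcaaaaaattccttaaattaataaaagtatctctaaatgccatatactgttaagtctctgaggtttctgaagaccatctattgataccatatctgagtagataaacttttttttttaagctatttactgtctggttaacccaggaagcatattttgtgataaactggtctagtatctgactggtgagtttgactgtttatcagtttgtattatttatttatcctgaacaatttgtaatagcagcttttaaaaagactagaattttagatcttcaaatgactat

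MYSERV loci were short and lay mostly outside genes. The median length was 291 bases for MYSERV-int (12 to 4949), 425 for MYSERV16_I-int (11 to 3563) and 373 for MYSERV6-int (12 to 5336), and 143 of the 7106 loci were longer than 2 kb. The 3 species cover 641032, 1432161 and 1739841 bases. Of all MYSERV loci, 72.5% (5153 loci) lay outside annotated genes, 25.1% (1784) in introns and 2.38% (169) on an exon, where all LTR loci had 64.5%, 33.0% and 2.48%, and the other 28904 internal loci of ERVK species had 81.9%, 15.8% and 2.25%. The 3 species hardly differed in this, with 74.4%, 72.1% and 72.0% outside genes for MYSERV-int, MYSERV16_I-int and MYSERV6-int. Of windows of 75 bases, the read length, 97.5%, 94.0% and 94.7% occurred once in the genome by exact match. How well reads tell the copies apart when mismatches are allowed was not measured. CpG sites were sparse, at 0.373, 0.328 and 0.368 per 100 bases, and the mean GC content was 34.8%, 34.2% and 34.9%. The polyadenylation signal AATAAA or its reverse complement TTTATT was present in 58.2%, 57.8% and 58.5% of loci, and a run of at least 12 A or 12 T, which an oligo-dT primer could meet, in 4.27%, 4.37% and 6.73%.

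Internal regions are bounded by LTRs in an intact provirus, but few MYSERV loci had this form in the annotation. An LTR repeat of another species lay within 20 bases of 47.2% of MYSERV-int, 47.7% of MYSERV16_I-int and 36.9% of MYSERV6-int loci, and such a repeat lay on both sides of 93, 155 and 160 loci, with the same species on both sides of 2, 16 and 9. RMER4A, an LTR of the ERVK class, was the most frequent neighbour of all 3 species, with 27.4% of 767 flanks in MYSERV-int, 10.04% of 1354 in MYSERV16_I-int and 12.7% of 1327 in MYSERV6-int. The next most frequent differed, being RLTR11A2 (7.95%), BGLII (8.79%) and RMER6B (8.74%). At least 1 read in any of the 62 RNA libraries was counted at 65.5%, 65.0% and 68.4% of loci, beside 65.75% of all LTR loci.

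Levels of the 3 species differed between germline and somatic populations in different ways. Figures for germline and P6 cells come from tables that were scaled separately, as do those of F1 and F3, so they stand side by side with no test. The summed value of MYSERV-int was 4115 ± 587 CPM (SD, n = 12) in F1 P4 cells, 2959 ± 534 (n = 11) in F1 P5 cells and 932.6 ± 50.0 (n = 12) in F1 P6 cells. In F3 it was 5676 ± 1424, 3404 ± 1486 and 911.4 ± 24.5 CPM (n = 9 each). The lowest, median and highest libraries of F1 stood at 3266, 4017 and 5152 CPM in P4, at 2423, 2883 and 3985 in P5 and at 853.5, 937.2 and 996.4 in P6 cells, so that the germline and somatic ranges did not overlap. The F3 ranges were 2937 to 7368, 672.5 to 5742 and 875.9 to 949.3 CPM, and the lowest P5 value belonged to TBT replicate 5, the library with the fewest reads.

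**Figure D1:**
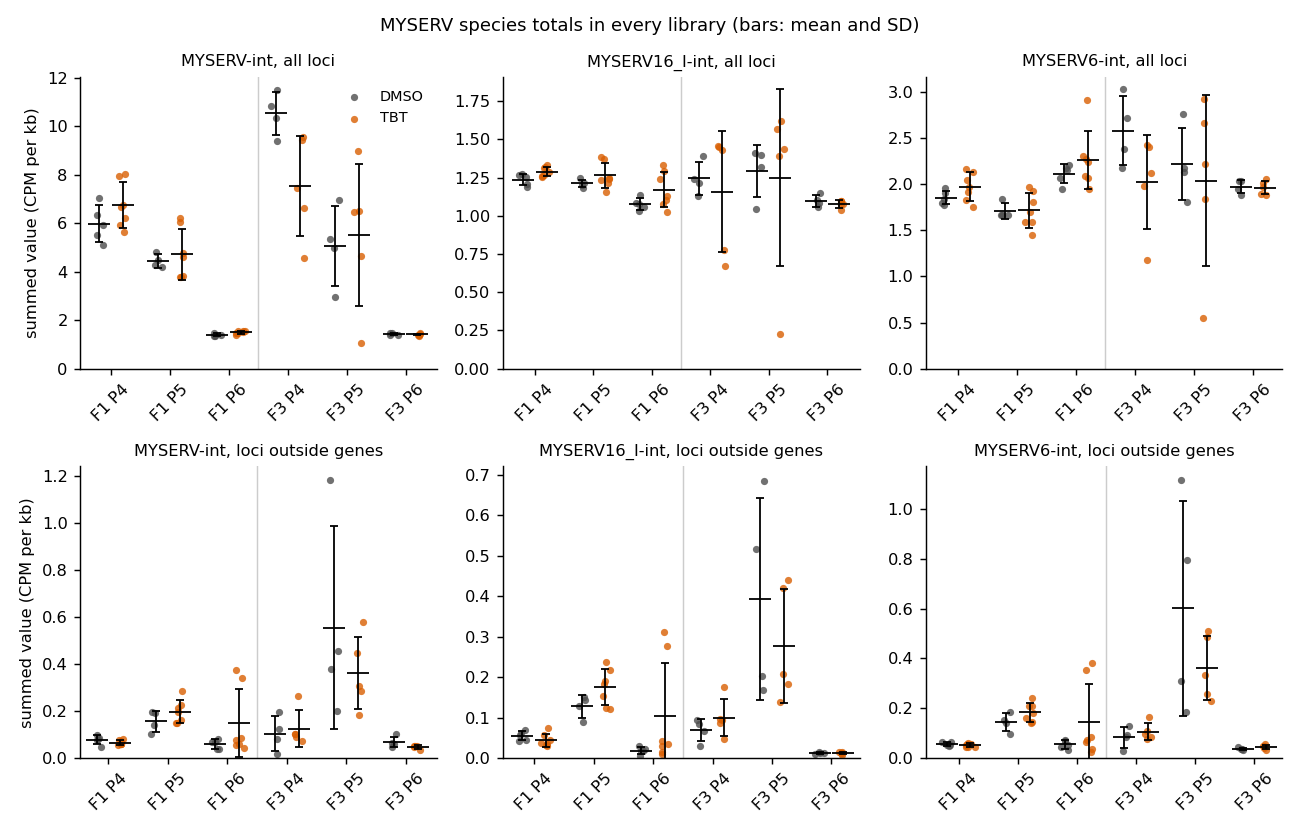
Summed value of each MYSERV species divided by the length of its loci (CPM per kb, y axis) in every library of the 6 populations (x axis), over all loci in the upper row and over loci outside genes in the lower row. Grey points are DMSO and orange points TBT libraries, and bars show the mean and SD. MYSERV-int over all loci lies near 1.45 CPM per kb in P6 cells and far above this in most germline libraries, whereas the other species over all loci have no such gap.

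MYSERV16_I-int and MYSERV6-int did not show this gap between germline and somatic cells. MYSERV16_I-int stood at 1815 ± 61.1 CPM in P4, 1783 ± 102 in P5 and 1622 ± 146 in P6 cells of F1, and at 1713 ± 418, 1817 ± 605 and 1555 ± 44.1 CPM in the same order in F3. MYSERV6-int stood at 3345 ± 238, 2978 ± 269 and 3824 ± 439 CPM in F1 and at 3945 ± 902, 3683 ± 1225 and 3421 ± 118 CPM in F3. Per kb of annotated sequence, F1 P4 cells held 6.42 CPM per kb of MYSERV-int, 1.27 of MYSERV16_I-int and 1.92 of MYSERV6-int. F1 P6 cells held 1.45, 1.13 and 2.20 CPM per kb. The level per kb of all LTR loci was 3.32 in F1 P4 and 3.14 in F1 P6 cells, and that of the other ERVK internal loci was 0.323 and 0.339. Most of this signal lies in introns whose loci share counts, as described next, so that these levels also rest on how many loci lie in expressed introns, and the species are not ranked by them.

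Most of this signal came from introns. In F1 P4, P5 and P6 cells, intron loci gave 98.5%, 95.8% and 90.5% of the summed value of MYSERV-int, 96.7%, 89.6% and 93.9% of MYSERV16_I-int and 91.3%, 85.3% and 89.4% of MYSERV6-int. In F3 they gave 98.3%, 91.9% and 93.3%, then 93.9%, 79.4% and 96.2%, then 91.6%, 77.5% and 90.8%. Single F3 P5 libraries went lower, down to 51.5% for MYSERV16_I-int in DMSO replicate 2 and 56.1% for MYSERV6-int in TBT replicate 5. LTR loci of 1 intron often held equal or nearly equal counts, although they differed in length and species. An interval is defined here as an unbroken stretch of gene without exon: the 1784 intron loci lay in 786 such intervals, 729 of which held 3 or more LTR loci. Reads above the lowest count of their interval made up 2.12% of the MYSERV reads in these intervals in F1 germline cells, 2.66% in F1 P6, 4.38% in F3 germline and 3.91% in F3 P6 cells. In intervals with at least 10 reads in a library, all LTR loci held exactly the same number of reads in 46.0%, 46.6%, 35.1% and 31.9% of the pairs of interval and library, and counts within 10% of each other in 59.0%, 68.4%, 42.3% and 61.3%. The shares of reads are weighted towards introns of high level, and the shares of pairs are not. Where counts were equal, the value of an intron locus is that of its interval, and a species total grows with the number of its loci in such an intron. How the counting treated spliced reads and reads with several positions is not given in the sources used here.

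Fkbp6 held most of the MYSERV-int signal of germline cells. Its intron interval chr5:135292112-135337365 (45254 bases, gene on the minus strand) holds 51 LTR loci of 18 to 1365 bases, 5 of them MYSERV-int, including the 133-base sequence shown above. The mean values of the 51 loci lay between 573.6 and 573.9 CPM in F1 P4, 376.3 and 378.4 in F1 P5, 903.1 and 903.4 in F3 P4 and 444.3 and 450.3 CPM in F3 P5 cells. In P6 cells they lay between 0.702 and 0.967 CPM in F1 and between 1.56 and 1.69 CPM in F3. The 5 loci together made up a median of 69.3% of the MYSERV-int value in DMSO libraries and 70.5% in TBT libraries of F1 P4 cells. In F1 P6 cells they made up 0.321% and 0.299%. Without them MYSERV-int stood at 1247 ± 55.2 CPM in F1 P4, 1077 ± 80.5 in F1 P5 and 929.1 ± 50.4 in F1 P6 cells, and at 1161 ± 269, 1180 ± 333 and 903.6 ± 21.6 CPM in F3. Over all MYSERV elements, Fkbp6 took 30.9% in F1 P4, 24.4% in F1 P5, 39.8% in F3 P4 and 25.0% in F3 P5 cells.

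Equal or nearly equal counts were also found in introns of lower level. Ndufs4, which encodes a subunit of mitochondrial complex I, holds 7 MYSERV loci among 9 LTR loci in chr13:114351527-114360767, and all 9 had the same count in 12 of 12 F1 P4 and 9 of 9 F3 P4 libraries, with means of 58.0 and 131.5 CPM. Nelfa, which encodes a subunit of the negative elongation factor of RNA polymerase II, took 7.18% of the MYSERV value in F1 P4 cells with 12 loci. In chr5:33922018-33936025, 1 of its intervals, the 8 MYSERV loci had means of 51.5 to 52.0 CPM in F1 P4 and 14.9 to 15.2 CPM in F1 P6 cells. Bcat2, which encodes a transaminase of branched-chain amino acids, took 5.60% of the MYSERV value in F1 P6 and 5.05% in F3 P6 cells.

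**Figure D2:**
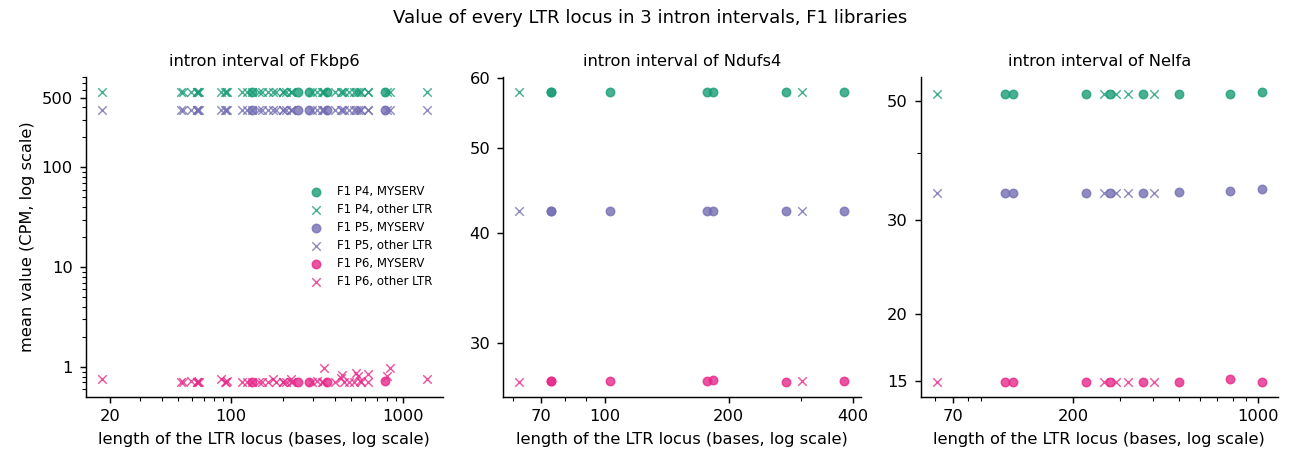
Mean value over F1 libraries of each LTR locus (CPM, y axis, log scale) against its length (bases, x axis, log scale) in 1 intron interval each of Fkbp6, Ndufs4 and Nelfa, with MYSERV loci as circles, other LTR loci as crosses and 1 colour per population. Within an interval the points of a population form nearly a flat line over the whole range of lengths.

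Outside genes, where no host transcript is annotated, MYSERV levels were low and P5 was the highest of the 3 populations in both generations. In F1, MYSERV-int, MYSERV16_I-int and MYSERV6-int loci outside genes held 0.0709, 0.0486 and 0.0536 CPM per kb in P4, 0.182, 0.158 and 0.169 in P5 and 0.111, 0.0677 and 0.107 in P6 cells. In F3 they held 0.116, 0.0862 and 0.0961 in P4, 0.447, 0.329 and 0.469 in P5 and 0.0562, 0.0124 and 0.0419 CPM per kb in P6 cells. The other ERVK internal loci outside genes held 0.0477, 0.156 and 0.0993 CPM per kb in F1 and 0.0730, 0.325 and 0.0823 in F3. TBT replicates 7 and 8 of F1 P6 stood far above the other libraries: the outside-gene sum of MYSERV-int was 28.3 ± 9.40 CPM (SD, n = 5) in DMSO and 70.5 ± 68.9 CPM (n = 7) in TBT libraries, with a TBT median of 37.6. Of the loci outside genes, 58, 64 and 134 had a mean of at least 5 reads' worth of signal in some population. Those were longer than the loci below this level, with medians of 669.5 against 278 bases, 794 against 409 and 661.5 against 354.5, and held AATAAA or TTTATT in 70.7% against 57.0%, 70.3% against 58.7% and 73.1% against 57.5%. Length and the presence of these letters are tied to each other, so both are descriptions only.

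Few single loci outside genes stood out per kb. The MYSERV-int locus beside Fv1 had a mean over the 6 populations of 12.6 CPM per kb, the highest of its species, and is described with the TBT comparison. The next MYSERV-int locus, chr3:104981797-104982515, stood at 2.65 CPM per kb, with 1.89 CPM in F1 P4 and 2.41 in F1 P5 but 0.172 in F1 P6 cells. The MYSERV16_I-int locus on chromosome 3 (9.77 CPM per kb) held 1.09 ± 1.66 CPM in F1 P4, 4.00 ± 2.14 in F1 P5 and 14.2 ± 20.9 in F3 P5 cells, and it was at 0 in 11 of 12 F1 P6 and 9 of 9 F3 P6 libraries. It was thus seen in germline cells, and its F3 P5 mean rested on libraries of up to 64.3 CPM. The second MYSERV16_I-int locus, chr13:23001230-23001666, owed its rank to 1 F3 P5 library with 211 reads (90.4 CPM) and was at 0 in all F1 germline, F3 P4 and F3 P6 libraries. The MYSERV6-int locus of 381 bases on chromosome 6 (11.8 CPM per kb) showed another order, with 0.713 ± 0.697 CPM in F1 P4, 3.61 ± 1.61 in F1 P5 and 5.54 ± 3.63 in F1 P6 cells, and 0.332, 11.9 and 4.86 CPM in F3. A further MYSERV6-int locus, chr7:24225673-24226161, lies 1411 bases from Zfp109, a zinc finger gene, and held 1.33, 3.64 and 3.89 CPM in F1.

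The comparison of P5 with P4 cells asked how the 2 germline populations, which were scaled in 1 table, differ. In F1, the MYSERV-int total was lower in P5 cells by 0.48 on the log2 scale (SE 0.087, FDR = 5.59e-05 by limma over all species) and the MYSERV6-int total by 0.16 (SE 0.047, FDR = 0.0042). MYSERV16_I-int differed by -0.03 (SE 0.029, FDR = 0.370). Species totals moved widely between these populations: 63.9% of 664 species passed the threshold, 22.9% higher and 41% lower. Without Fkbp6, the fall of MYSERV-int was 0.21 (FDR = 2.12e-05, limma), where 39.9% of species were lower. With each intron interval counted once per species, MYSERV6-int stood at 0.02. Both of the other results changed with the scaling: with the same total in every library MYSERV16_I-int was higher by 0.12 (FDR = 0.00014, limma) and MYSERV6-int stood at -0.01 (FDR = 0.733), where 47.3% of species were higher and 17.6% lower and the median over all species went from -0.07 to 0.08. By the quasi-likelihood test of edgeR, which also changed the test, MYSERV16_I-int was higher by 0.057 (FDR = 0.0265), where 36.6% and 31% of species were higher and lower. With only loci tested singly it passed in the other direction, at -0.15 (FDR = 0.000403, limma).

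Outside genes the direction was the opposite. The outside-gene totals of MYSERV-int, MYSERV16_I-int and MYSERV6-int rose in F1 P5 cells by 1.27, 1.62 and 1.57 on the log2 scale (SE 0.149, 0.156 and 0.122, FDR = 2.23e-09, 3.18e-11 and 3.77e-13, limma). In CPM, MYSERV-int outside genes ranged from 23.2 to 46.4 CPM in DMSO and from 25.6 to 38.5 CPM in TBT libraries of P4 cells, and from 47.8 to 92.9 and from 70.02 to 135.1 CPM in P5 cells, so that the populations did not overlap. This held for LTR repeats at large, since 93.7% of 589 species rose outside genes, with a median of 1.31.

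**Figure D3:**
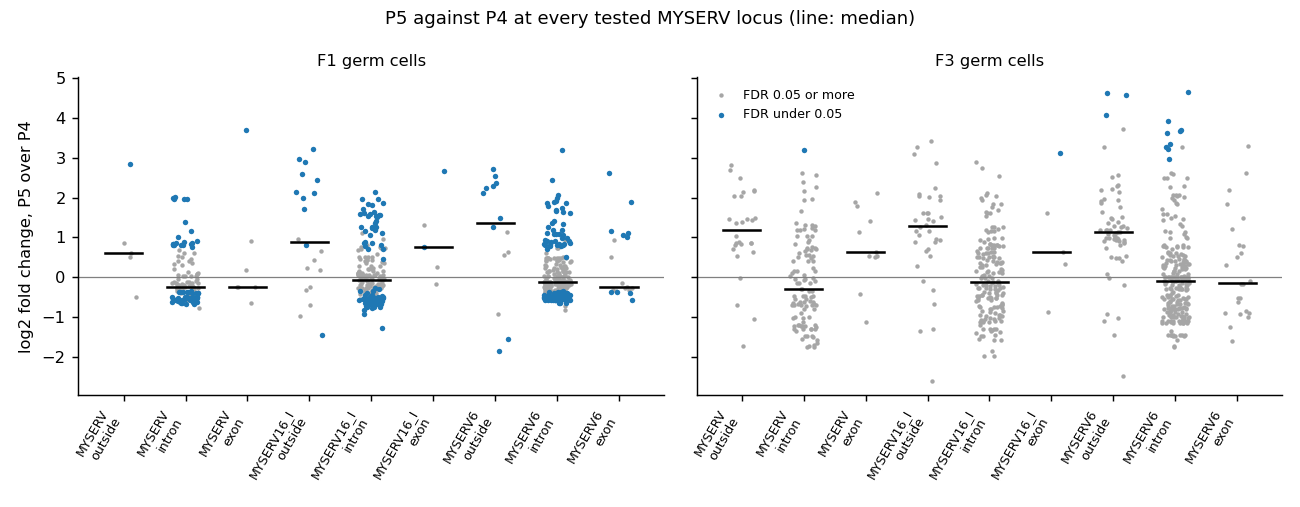
Log2 fold change of P5 over P4 cells (y axis) at each tested MYSERV locus of F1 (left) and F3 (right), by species and position outside genes, in introns or on exons (x axis), with lines at the medians and blue points for loci past FDR 0.05. The points outside genes lie mostly above 0, but the filter on low values took most of these loci in through P5, with 90 reaching it in P5 and 19 in P4 of F1, and 189 and 44 in F3.

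At single loci of F1, 633 MYSERV loci passed the filter on low values, a mean of at least 5 reads' worth, and 126 were higher and 144 lower in P5 cells (FDR under 0.05 by limma), where 17% and 20.3% of all tested LTR loci were higher and lower. The MYSERV shares, 19.9% and 22.7%, were near this background. The called intron loci, 98 higher and 137 lower of 563, lay in 49 and 54 intervals, and their shares of 17.4% and 24.3% stood beside 15.6% and 21.3% of all tested LTR loci in introns. Outside genes, 19 loci (48.7%) were higher and 3 (7.69%) lower of 39, where 42.8% and 3.15% of all tested LTR loci outside genes were. The filter took the mean over both populations, and by each population alone 19 MYSERV loci outside genes reached it in P4 and 90 in P5, so a locus could enter through P5 only and the direction of these calls is in part set by the filter. The totals outside genes sum every locus, with no such filter on loci. All P5 libraries lay above all P4 libraries at 10 MYSERV loci and below them at 1, where this was so at 2.11% and 0.753% of all tested loci. With every library scaled to the same total, the split was 154 higher and 65 lower, where 19.9% and 10.6% of all tested loci were. The 3 loci that rose most without overlap between populations were MYSERV16_I-int loci of 1 intron interval of Abhd3, a phospholipase gene on chromosome 18, which went from 2.04 ± 1.05 CPM (SD, n = 12) to 6.22 ± 1.44 CPM (n = 11) at the first of them (log2 1.64, SE 0.24, FDR = 1.86e-06). A MYSERV16_I-int locus in an intron of Faf1 (chr4:109750972-109751678), a gene of the ubiquitin system, fell from 106 ± 12.5 to 70.8 ± 8.81 CPM, with P4 libraries from 88.4 to 130.1 and P5 libraries from 51.3 to 85.9 CPM (log2 -0.61, SE 0.087, FDR = 1.35e-06).

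In F3 the spread was larger and fewer loci passed. The MYSERV-int, MYSERV16_I-int and MYSERV6-int totals differed by -0.91 (SE 0.335, FDR = 0.219), -0.02 (SE 0.329, FDR = 0.979) and -0.18 (SE 0.285, FDR = 0.804), where 2.57% of species were higher and 0.151% lower by limma. Without TBT replicates 5 and 9 the MYSERV-int difference was -0.78 (FDR = 0.0113), where 6.95% of species were higher and 5.74% lower. Without TBT replicate 5 alone it was -0.73 (FDR = 0.0079), and without Fkbp6 it was -0.01. With other scalings MYSERV-int passed the threshold, at -0.59 with the same total in every library (FDR = 9.90e-05, limma) and -0.75 with median-ratio size factors (FDR = 2.33e-05, limma). It also passed by the quasi-likelihood test of edgeR, at -0.72 (FDR = 5.41e-05), a setting that changed the test and took recovered reads as well as another scaling. MYSERV16_I-int passed with the same total, at 0.30 (FDR = 0.0138, limma). Under these settings 14.7%, 9.52% and 11.5% of species were higher and 3.63%, 9.52% and 8.31% lower, and the median over all species moved from -0.18 to 0.13, -0.03 and 0.01. The outside-gene totals rose by 2.05, 1.91 and 2.23 on the log2 scale (FDR = 0.00043, 0.00022 and 2.72e-05), where 58.7% of species rose, and by 2.19, 2.08 and 2.21 without TBT replicates 5 and 9 (FDR = 0.00036, 0.00013 and 0.00011, limma). Both fits kept DMSO replicates 1 and 2 of P5, where 23.5% and 27.9% of LTR reads fell outside genes, and a fit without these 2 was not run for P5 against P4. Of 701 tested MYSERV loci, 14 were higher and 0 lower (limma), beside 0.985% higher and 0.0112% lower of all tested loci, and 105 had an unadjusted p under 0.05, where 10.5% of all loci did. Of the 14 called loci 10 lay in introns, 1.87% of the 534 tested there, where 0.392% of all tested LTR loci in introns were higher and 0.0128% lower, and 1 lay on an exon. The 10 loci lay in 6 intervals. The 3 MYSERV loci called outside genes were among 127 tested there, where 4.41% of all tested LTR loci outside genes were higher and 0% lower. Without TBT replicates 5 and 9, 12 of 713 were higher and 5 lower, where 0.929% and 0.0571% of all loci were. The lower ones included chr5:135304636-135304995 in Fkbp6 (log2 -1.10, FDR = 0.0467, limma). All LTR loci of that intron interval hold nearly equal counts, so such lower calls need not be separate observations, among MYSERV or among all loci. Leaving out 1 replicate number at a time gave 4 to 32 calls. The number was 4 without TBT replicate 7 (0.303% of all loci called), 6 without DMSO replicate 1 (0.358%), DMSO replicate 3 (0.385%) or TBT replicate 9 (0.285%), 7 without TBT replicate 6 (0.331%) and 8 without DMSO replicate 2 (0.669%). It was 13 without DMSO replicate 4 (0.688%) or TBT replicate 8 (0.471%) and 32 without TBT replicate 5 (2.33%). All these calls were higher in P5 cells, except 5 lower without TBT replicate 8 and 5 lower without TBT replicate 5. On recovered reads, the quasi-likelihood test of edgeR called 80 higher and 2 lower, beside 6.47% and 0.0826% of all loci, and DESeq2 76 and 1, beside 7.62% and 0.0418%.

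The 1629-base MYSERV6-int locus on chromosome 6 was the only MYSERV locus of F3 past the threshold whose P4 and P5 libraries did not overlap, a state seen with P5 higher at 0.111% and with P5 lower at 0.0051% of all tested loci. It lies at chr6:38614132-38615760, outside genes, 4662 bases after Luc7l2, a gene for a splicing protein, and 9933 bases from Klrg2. Its lowest, median and highest values were 0, 0 and 2.56 CPM in the 9 P4 libraries and 2.95, 7.19 and 36.0 CPM in the 9 P5 libraries (log2 4.60, SE 0.80, FDR = 0.0027 by limma), 6 P4 libraries being at 0. Its P4 mean of 0.466 CPM was below the filter, so that it entered through P5, and the size of the fold depends on the pseudocount, with a log2 of 6.03 when 0.25 units were added and 3.13 with 4 units. Without TBT replicates 5 and 9 the difference was 4.14 (FDR = 0.0070, limma). In F1 it stood at 0.869 ± 0.741 CPM in P4, 4.45 ± 2.07 in P5 and 9.21 ± 3.88 in P6 cells, and in F3 P6 at 8.89 ± 2.18 CPM. Its level in somatic cells was thus above that of P4 cells in both generations, and the summed Sertoli cell markers of F3 were 0 to 10.2 CPM with a median of 3.91 in P4 cells and 0 to 26.0 CPM with a median of 10.4 in P5 cells, which overlap. In F1 they were 5.12 to 21.7 and 10.2 to 45.7 CPM, which overlap too. In F3 P4 cells the Leydig, endothelial and blood cell sums had medians of 3.96, 3.49 and 1.64 CPM. In F3 P5 cells these medians were 4.49, 8.50 and 1.39 CPM, and the P4 and P5 libraries overlapped in each list. The part of these markers in the difference was not tested.

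Exposure of the F0 dams was the treatment of the study, which asked about the epigenetic basis of a predisposition to obesity that passes to later generations, and TBT was compared with DMSO within each population. At the level of species totals no MYSERV species passed the threshold in any population. In F1 P4 cells the log2 differences of TBT from DMSO were 0.17 (SE 0.091), 0.06 (SE 0.034) and 0.09 (SE 0.051) for MYSERV-int, MYSERV16_I-int and MYSERV6-int (FDR = 0.439 each, limma). MYSERV-int ranged from 3266 to 4510 CPM in the 5 DMSO and from 3604 to 5152 CPM in the 7 TBT libraries, which overlap. Leydig cell markers of the F1 P4 libraries summed to 4.27 to 122 CPM with a median of 59.1 in DMSO and to 3.84 to 23.7 CPM with a median of 7.42 in TBT libraries. Sertoli cell markers of the F1 P5 libraries summed to 14.6 to 45.7 CPM (median 31.6) and 10.2 to 16.4 CPM (median 13.8) in the same order, and the part of either in the TBT comparisons of F1 germline cells was not tested. In F1 P5 cells the differences were 0.06 (SE 0.135), 0.06 (SE 0.055) and 0.0049 (SE 0.078), with FDR = 0.999 each. In F1 P6 cells they were 0.10 (SE 0.038), 0.12 (SE 0.061) and 0.09 (SE 0.078), with FDR = 0.725, 0.742 and 0.744. The smallest unadjusted p of these was 0.0173 for MYSERV-int in F1 P6, where 6.36% of species had one under 0.05, with 853.5 to 948.3 CPM in DMSO and 888.8 to 996.4 CPM in TBT libraries, and the difference was 0.09 without TBT replicates 7 and 8.

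F3 totals showed no call either. The F3 P4 differences were -0.53 (SE 0.246), -0.18 (SE 0.280) and -0.39 (SE 0.2501), with FDR = 0.508, 0.675 and 0.508 (limma), beside a median over all species of -0.41. Without TBT replicates 5 and 9, they were -0.26, 0.22 and -0.15. In F3 P5 cells they were -0.10 (SE 0.606), -0.32 (SE 0.580) and -0.31 (SE 0.525), with FDR = 0.997 each, and 0.14, 0.15 and 0.27 without TBT replicate 5 and DMSO replicates 1 and 2. In F3 P6 cells, where the SEs were smallest, they were -0.03 (SE 0.029), -0.03 (SE 0.027) and -0.0076 (SE 0.029), with FDR = 0.829, 0.810 and 0.962. Across all species, 0 of 660 to 668 passed in each population, while 51, 32 and 42 in F1 and 20, 0 and 62 in F3 had an unadjusted p under 0.05. Over all loci, the interaction between exposure and population was -0.11, -0.0021 and -0.08 in F1 (FDR = 0.997 each) and 0.43, -0.14 and 0.08 in F3 (FDR = 0.999 each, limma), with 0 of 664 and 662 species passing and 16 and 2 at an unadjusted p under 0.05. With another scaling, at least 1 of the 3 totals changed direction in each population other than F1 P6.

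**Figure D4:**
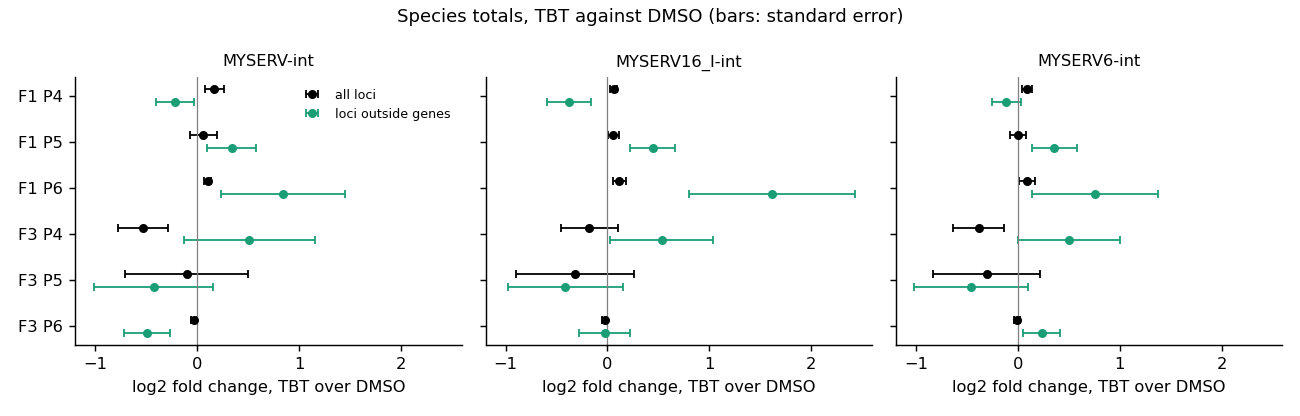
Log2 fold change of TBT over DMSO (x axis, with bars of 1 standard error on either side) of each MYSERV species total in the 6 populations (y axis), over all loci in black and over loci outside genes in green. The bars over all loci are wide in F3 P4 and P5 cells, with SEs of 0.246 to 0.606, and narrow in F3 P6 cells, with SEs up to 0.029.

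Totals over loci outside genes gave no call for TBT, by limma over the species tested. The differences of MYSERV-int, MYSERV16_I-int and MYSERV6-int were -0.22, -0.38 and -0.11 in F1 P4, 0.34, 0.44 and 0.36 in F1 P5 and 0.84, 1.61 and 0.76 in F1 P6 cells. The last 3 stood beside a median over all species of 1.22 and moved with TBT replicates 7 and 8: MYSERV16_I-int outside genes ranged from 4.92 to 30.2 CPM in DMSO and from 11.2 to 320.7 CPM in TBT libraries. Without these 2 libraries they were 0.12, 0.58 and -0.058. In F3 they were 0.51, 0.53 and 0.50 in P4 and -0.43, -0.41 and -0.46 in P5 cells. Without TBT replicates 5 and 9 the P4 differences were 0.15, 0.20 and 0.37, and without TBT replicate 5 and DMSO replicates 1 and 2 the P5 differences were 0.31, 0.64 and 0.54. In F3 P6 cells they were -0.49 (SE 0.226, FDR = 0.843), -0.03 and 0.24. The interaction, the difference of the TBT effect between P5 and P4 cells, was 0.56, 0.82 and 0.47 outside genes in F1 (FDR = 0.445, 0.364 and 0.445, limma), beside a median over all species of 0.35. In F3 it was -0.94, -0.95 and -0.96 (FDR = 0.990 each, limma), beside a median of -0.40, and -0.67, -0.60 and -1.003 without TBT replicates 5 and 9. None of the 589 and 603 species passed, while 63 and 10 had an unadjusted p under 0.05.

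At single loci, 1 MYSERV locus passed the threshold in 1 of the 6 populations. In F1 P4, P5 and P6 cells, 0 of 561, 764 and 517 tested MYSERV loci passed by limma, where 0%, 0.0106% and 0.00341% of all tested LTR loci did. In F3 P4 and P5 cells, 0 of 546 and 783 passed, where 0% of all loci did in both, and in F3 P6 cells 1 of 605 passed, where 0.0343% did, 0.0143% being lower. An unadjusted p under 0.05 was reached by 69, 90, 32, 6, 10 and 50 MYSERV loci in these populations, against 7.09%, 6.89%, 3.68%, 1.65%, 1.01% and 7.96% of all loci. The median log2 difference of the tested MYSERV loci was 0.03, 0.04, -0.0031, -0.45, 0.04 and 0.03, and that of all tested loci 0.04, 0.03, -0.04, -0.69, 0.15 and 0.02. The likelihood ratio test of edgeR on recovered reads called 1, 15, 1, 0, 48 and 7 MYSERV loci, where it called 0.0982%, 0.32%, 0.05%, 0.00463%, 3.13% and 0.32% of all loci. DESeq2 called 0, 6, 0, 0, 0 and 1 (0.0164%, 0.114%, 0.0125%, 0.0139%, 0% and 0.0963% of all loci), and the quasi-likelihood test of edgeR 0, 0, 0, 0, 0 and 1 (0%, 0.00327%, 0.00341%, 0%, 0% and 0.0582%). In F1 P5 cells limma called 2 loci, both higher, without DMSO replicate 43-4, 44-1 or 48-4 or TBT replicate 45-3, where 0.0268%, 0.0163%, 0.0658% and 0.0106% of all loci were higher, and 0.0106% lower without DMSO replicate 48-4 and 0% otherwise. It called 1, higher, without DMSO replicate 43-5, where 0.027% of all loci were higher. With no filter on low values it called 23 of 3495 MYSERV loci in F1 P5 cells (0.658%), all higher in TBT, where 0.187% of all loci were higher and 0.0154% lower. These 23 loci, 16 outside genes and 7 in 5 intron intervals, had also passed the filter, without a call. In F3 P6 cells limma called 1 higher and 1 lower without DMSO replicate 3, where 0.0181% and 0.0124% of all loci were. The DMSO and TBT libraries were fully separated at 5, 7 and 2 MYSERV loci of the F1 P4, P5 and P6 populations, where this was so at 0.386%, 0.886% and 0.317% of all tested loci, and at 5, 5 and 23 loci of the F3 populations, where it was so at 1.9%, 0.428% and 2.9%.

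The called locus was the MYSERV-int element beside Fv1, and it was lower in TBT-F3 somatic cells. It lies at chr4:147870982-147871807, outside genes, 624 bases after Fv1 (plus strand) and 1792 bases before Mfn2 (minus strand), a gene of mitochondrial fusion. All of its 75-base windows occur once in the genome, its GC content is 38.0% and it holds AATAAA or TTTATT. In F3 P6 cells the DMSO replicates 1 to 4 held 18.8, 17.1, 22.3 and 19.7 CPM, from 95, 76, 90 and 100 reads. The TBT replicates 5 to 9 held 10.8, 10.4, 8.36, 6.41 and 9.15 CPM, from 59, 61, 65, 31 and 59 reads. All TBT libraries lay below all DMSO libraries, with means of 9.02 ± 1.76 (SD, n = 5) and 19.5 ± 2.17 CPM (n = 4) and a log2 difference of -1.11 (SE 0.16, FDR = 0.0060 by limma over 104835 loci). The locus passed the threshold under all 17 alternatives run for it, with log2 differences from -1.18 to -0.996 and an FDR up to 0.0327.

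**Figure D5:**
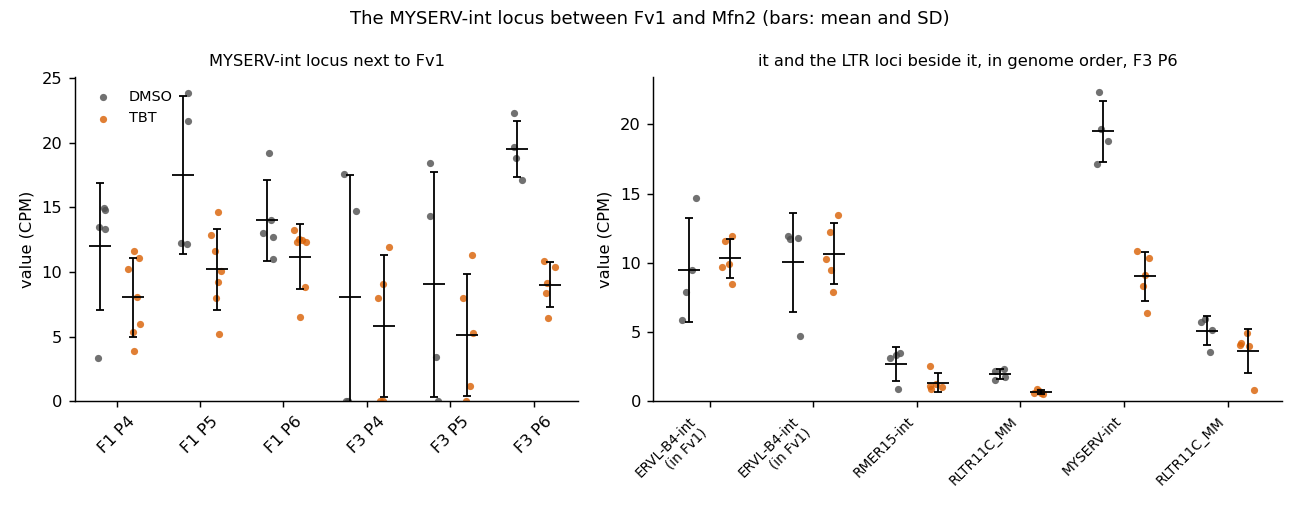
Left, value of the MYSERV-int locus beside Fv1 (CPM, y axis) in each library of the 6 populations (x axis). Right, the same for this locus and the LTR loci beside it in F3 P6 libraries, in genome order. Grey points are DMSO and orange points TBT libraries, bars show the mean and SD, and lower bars are cut at 0. In F3 P6 cells the TBT libraries lie between 6.41 and 10.8 CPM and the DMSO libraries between 17.1 and 22.3 CPM.

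The other populations did not pass at this locus. In F1 P5 cells the 4 DMSO libraries held 12.2, 23.8, 21.7 and 12.3 CPM, and the 7 TBT libraries ranged from 5.22 over a median of 10.1 to 14.6 CPM. These overlap, and the log2 difference was -0.76 (SE 0.26, FDR = 0.502, limma). F1 P4 cells held 11.98 ± 4.88 CPM (n = 5) in DMSO and 8.04 ± 3.05 CPM (n = 7) in TBT libraries (log2 -0.49, FDR = 0.769), and F1 P6 cells 13.99 ± 3.12 and 11.2 ± 2.50 CPM (log2 -0.33, FDR = 0.999). In F3 P4 cells the means were 8.08 and 5.80 CPM, with 0 reads in 2 of 4 DMSO and 2 of 5 TBT libraries, and the log2 difference had the other sign, at 0.16 (FDR = 0.989, limma), since it is a mean over libraries after 1 unit was added and 4 of them were at 0. It was 2.29 (FDR = 0.561) without TBT replicates 5 and 9, and neither value gives a direction. In F3 P5 cells they were 9.04 and 5.15 CPM, with a log2 difference of -0.49 (FDR = 1.00, limma), or -1.64 (FDR = 0.845) without TBT replicate 5 and DMSO replicates 1 and 2. Whether the effect differs between these populations was not tested.

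Its neighbours and the germ cell markers were read in the same F3 P6 libraries. The LTR that precedes it, RLTR11C_MM at chr4:147870755-147870955, held 1.96 ± 0.369 CPM in DMSO and 0.694 ± 0.158 CPM in TBT libraries, without overlap (1.58 to 2.36 against 0.509 to 0.919). The RLTR11C_MM repeat that follows, at chr4:147871814-147871944, held 5.11 ± 1.06 and 3.63 ± 1.61 CPM, which overlap. The 2 ERVL-B4-int loci in Fv1 held 9.48 ± 3.76 and 10.04 ± 3.55 CPM in DMSO and 10.3 ± 1.42 and 10.7 ± 2.20 CPM in TBT libraries. The summed germ cell markers were 5.35, 2.70, 27.3 and 21.9 CPM in DMSO replicates 1 to 4 and 2.21 to 4.75 CPM in the TBT libraries. At the locus the same DMSO libraries held 18.8, 17.1, 22.3 and 19.7 CPM, and the part of germ cell content in the difference was not tested. Fkbp6 moved in the same way as the markers, with 2.93 ± 3.07 CPM per locus in DMSO and 0.481 ± 0.368 CPM in TBT libraries.

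Other loci were named by a rule, the locus of smallest unadjusted p in each direction and population among those whose groups did not overlap, and none passed the threshold. In F1 P5 cells the MYSERV16_I-int locus chr16:20957549-20958254, outside genes and 2373 bases from Gm18769, held reads in 1 of 4 DMSO libraries (0.478 CPM) and ranged from 0.869 over 2.20 to 4.60 CPM in the 7 TBT libraries (log2 3.18, SE 0.60, FDR = 0.0966, limma). Its DMSO mean of 0.120 CPM was below the filter, so that it entered through the TBT libraries, and the fold depends on the pseudocount, with a log2 of 4.66 when 0.25 units were added and 1.80 with 4 units. A MYSERV6-int locus on an exon of Map4, a gene for a microtubule-associated protein (chr9:109988684-109989819), held 21.1 ± 1.53 CPM in DMSO and 14.1 ± 2.52 CPM in TBT libraries of the same cells (log2 -0.60, FDR = 0.425), where the Sertoli cell sums given above also differed between the exposures. In F1 P4 cells a MYSERV16_I-int locus in an intron of Vwa3b (chr1:37040322-37040718) held 0.183 ± 0.409 and 2.64 ± 1.43 CPM (log2 2.96, FDR = 0.582). It too entered through the TBT libraries, with a log2 of 4.49 and 1.61 at these pseudocounts. In F1 P6 cells a MYSERV6-int locus in an intron of Zfp938, a zinc finger gene (chr10:82228996-82229723), held 1.94 ± 0.702 and 3.81 ± 0.779 CPM (log2 0.93, FDR = 0.999, and 0.97 without TBT replicates 7 and 8). In F3 P4 cells a MYSERV-int locus in an intron of Trappc3, which serves vesicle transport (chr4:126269103-126270276), held 30.8 ± 5.41 and 14.1 ± 11.8 CPM (log2 -2.33, FDR = 0.870), but the difference was -0.43 (FDR = 0.579) without TBT replicates 5 and 9. A MYSERV6-int locus on an exon of Gm13148, of which 1.61% of windows are unique, held 0.0584 ± 0.117 and 5.55 ± 6.76 CPM there (log2 3.30, FDR = 0.870), with a log2 of 4.80 and 1.96 at the pseudocounts above. Its DMSO mean was also below the filter, which it did not pass without these 2 libraries. In F3 P5 cells a MYSERV16_I-int locus in 2010005H15Rik stood lower (6.12 ± 2.72 and 1.33 ± 1.23 CPM, log2 -2.30, FDR = 1.00, and -1.82 without TBT replicate 5 and DMSO replicates 1 and 2), and in F3 P6 cells 1 in Dmxl1 on chromosome 18 stood higher (0.855 ± 0.316 and 2.26 ± 0.641 CPM, log2 1.24, FDR = 0.392). The TBT mean in 2010005H15Rik and the DMSO mean in Dmxl1 were below the filter of 5 units, at 0.293 and 0.197 CPM per unit. The first locus thus entered through the DMSO libraries and the second through the TBT libraries, and their folds depend in part on the 1 unit added.

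Methylated DNA of P6 cells gave no call at MYSERV elements. Of the 100-base windows with counts, 224 of 154773 (0.145%) in F1 and 221 of 164382 (0.134%) in F3 lay with at least 50 bases in a MYSERV locus. They took 0.119% ± 0.0066 (SD, n = 3) of the counts in DMSO-F1 and 0.116% ± 0.0029 (n = 4) in TBT-F1 libraries, and 0.0909% ± 0.0049 (n = 5) and 0.0876% ± 0.0076 (n = 7) in F3. Total counts per library were 701493 to 1913353 in F1 and 1105120 to 1556376 in F3. Of 30 windows tested in F1, 0 passed by the quasi-likelihood test of edgeR, where 0.0318% of 34559 windows did, and 1 had an unadjusted p under 0.05, as 5.01% of all windows did (2 MYSERV windows by the likelihood ratio test, 1 by DESeq2). Of 39 tested in F3, 0 passed, where 0% of 47563 did, and 1 had an unadjusted p under 0.05 by each of these tools, where 5.19% of all windows did by the quasi-likelihood test. The median log2 difference was -0.08 in both generations. The window of smallest p was chr7:45577001-45577100, in a MYSERV6-int locus of a Bcat2 intron with 0 CpG sites, at 23.6 ± 5.15 CPM in DMSO-F3 and 15.96 ± 3.81 CPM in TBT-F3 libraries (log2 -0.56, FDR = 0.916, edgeR). In F1 it was chr4:145632401-145632500, also with 0 CpG sites, in a MYSERV6-int locus of a Gm26763 intron, at 34.7 ± 15.8 and 53.8 ± 4.71 CPM (log2 0.58, FDR = 0.974, edgeR).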

How the data were processed

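RNA values were taken from 4 tables, F1 and F3 germline and P6 cells. The authors deposited CPM for each LTR locus of RepeatMasker, a signal already scaled, made from paired reads by Trim Galore, STAR on GRCm38 (mm10), a modified ERVmap and TMM scaling in edgeR; program versions are not given in the sources used here. The libraries were made with oligo-dT priming and no strand information. All values (100%) were whole multiples, within 0.01, of the value of 1 read, which is called 1 unit and equals 0.181 to 0.294 CPM in the median library of a population. For methylated DNA, the authors deposited raw counts per 100-base window, beside how many CpG sites each window holds. Positions in the RNA tables were counted from 1 by adding 1 to the deposited start. Genes came from GENCODE release 21 for mouse (M21) on GRCm38, and sequences from RefSeq on GRCm38.

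Each locus whose mean reached 5 units entered limma 3.58.1 (R 4.3.3, variance trend on) after 1 unit was added and log2 taken, with FDR by the Benjamini-Hochberg method over all LTR loci tested. Totals of each species were tested in the same way, also with 1 unit added. TBT was compared with DMSO within each population, and P5 with P4 in a fit of 4 groups. For MBD counts, TMM factors and the quasi-likelihood fit of edgeR 4.0.16 were used. The alternatives took recovered reads into edgeR (quasi-likelihood, likelihood ratio) and DESeq2 1.42.0, or changed the pseudocount to 0.25 or 4 units, the filter to none or 20 units, or the scaling to equal totals or median-ratio size factors. Further ones used only loci outside genes, only loci tested singly, the label number as a replicate block, a random effect of the number before the hyphen in the label, or each library left out in turn. Added after seeing the data were each intron interval counted once, totals without Fkbp6, and fits without the libraries named in the text. The scripts were tested on simulated data. Other tools were version 1.17.8 of the data.table package, Python 3.11.15, numpy 2.4.6, pandas 2.3.3, matplotlib 3.10.9 and samtools 1.23.1.

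The elements, the lists and the tests were chosen with earlier results of these data known. Named loci were those past FDR 0.05 for TBT; per population the 1 higher and 1 lower locus of smallest p among those whose groups do not overlap; per species the 2 loci outside genes and the 1 inside of highest mean per kb among loci of at least 300 bases; and per generation the 3 higher and 3 lower loci of largest change between P5 and P4 past the threshold without overlap. The strand of the repeats was not used here. Expression of genes was not analysed here, and the values of 1 host gene are not reported here.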

Additional observations from a re-analysis of the deposited data

Results flagged for a closer look

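Chance alone flags about 1 in 20 groups in the search for a library far from the others of its group, and 6 of the 84 groups searched were flagged. For each, the gap to the nearest other library is given as a share of the range of the group.

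The MYSERV6-int total of DMSO replicate 44-1 in F1 P5 cells stood at 3188 CPM, above the next of 2889 CPM (gap 0.998 of the range). The MYSERV6-int total of TBT replicate 11 in F1 P6 cells stood at 5062 CPM, above 4005 CPM (0.629). The MYSERV16_I-int total of TBT replicate 5 in F3 P5 cells, the library of fewest reads, stood at 328.1 CPM, below 1991 CPM (0.834). The MYSERV-int total outside genes stood at 125.7 CPM in TBT replicate 9 of F3 P4 cells, also a library of few reads, above 48.2 CPM (0.845), and at 15.99 CPM in TBT replicate 5 of F3 P6 cells, below 22.96 CPM (0.777). The MYSERV-int locus beside Fv1 stood at 3.35 CPM in DMSO replicate 43-4 of F1 P4 cells, below 13.3 CPM (0.858), and its TBT libraries there ranged from 3.904 to 11.6 CPM.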

How the results depend on the processing

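Of 1042 values recomputed under an alternative, 890 kept their direction and their side of the threshold, or for counts stayed within 1.5 times, and 110 changed direction; the causes were not tested except where the alternative itself uses fewer loci or libraries. Same-numbered P4 and P5 libraries deviated together in part: the correlation was above 0.1 in 7 of 11 pairs in F1 (-0.17 to 0.53, 5 closest to their own number) and in 7 of 9 in F3 (-0.32 to 0.60, 1 closest). The labels do not say what a number marks and not every pair was above 0.1, so the numbers were not taken to pair the samples. With the replicate block, MYSERV-int gave -0.50 for P5 against P4 in F1 and -0.91 in F3 (FDR = 0.0373, limma), and 23 MYSERV loci were called higher and 5 lower in F3 (2.11% and 0.0907% of all loci), in place of 14 and 0. The 3 RNA libraries with the fewest reads are F3 germline libraries, and most loci outside genes lay below the filter and were not tested singly. Without these libraries (in P5 also without DMSO replicates 1 and 2), 0 MYSERV loci were called for TBT in F3 P4 and P5 cells, and what depth limits there was not tested. The MBD counts are not corrected for CpG density or input, and leaving out any library or using another tool, filter or total left 0 MYSERV windows called.

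With the likelihood ratio test of edgeR, the number of loci called was 1 for TBT in F1 P4 (1 higher and 0 lower, 0.00764% and 0.0906% of all loci), 15 for TBT in F1 P5 (12 higher and 3 lower, 0.253% and 0.0662% of all loci), 1 for TBT in F1 P6 (1 higher and 0 lower, 0.0477% and 0.00227% of all loci), 48 for TBT in F3 P5 (10 higher and 38 lower, 0.66% and 2.47% of all loci), 113 for P5 against P4 in F3 (110 higher and 3 lower, 8.99% and 0.254% of all loci) and 7 for TBT in F3 P6 (1 higher and 6 lower, 0.16% and 0.159% of all loci). With DESeq2 on recovered reads, the number of loci called was 6 for TBT in F1 P5 (6 higher and 0 lower, 0.0948% and 0.0196% of all loci) and 77 for P5 against P4 in F3 (76 higher and 1 lower, 7.62% and 0.0418% of all loci). With no filter on low values, the number of loci called was 23 for TBT in F1 P5 (23 higher and 0 lower, 0.187% and 0.0154% of all loci) and 8 for P5 against P4 in F3 (8 higher and 0 lower, 0.0949% and 0% of all loci). With a minimum mean of 20 units, the number of loci called was 179 for P5 against P4 in F1 (35 higher and 144 lower, 11.9% and 45.6% of all loci) and 3 for P5 against P4 in F3 (3 higher and 0 lower, 0.583% and 0% of all loci). With the quasi-likelihood test of edgeR, the number of loci called was 82 for P5 against P4 in F3 (80 higher and 2 lower, 6.47% and 0.0826% of all loci). With the same total in every library, the number of loci called was 22 for P5 against P4 in F3 (17 higher and 5 lower, 1.31% and 0.0765% of all loci). With the replicate block, the number of loci called was 28 for P5 against P4 in F3 (23 higher and 5 lower, 2.11% and 0.0907% of all loci). With only loci outside genes, the totals gave MYSERV-int -0.22, MYSERV16_I-int -0.38 and MYSERV6-int -0.11 for TBT in F1 P4, then MYSERV-int 1.27 (past the threshold, FDR = 2.23e-09), MYSERV16_I-int 1.62 (past the threshold, FDR = 3.18e-11) and MYSERV6-int 1.57 (past the threshold, FDR = 3.77e-13) for P5 against P4 in F1, then MYSERV-int 0.56, MYSERV16_I-int 0.82 and MYSERV6-int 0.47 for the interaction in F1, then MYSERV-int 0.51, MYSERV16_I-int 0.53 and MYSERV6-int 0.50 for TBT in F3 P4, then MYSERV-int 2.05 (past the threshold, FDR = 0.00043), MYSERV16_I-int 1.91 (past the threshold, FDR = 0.000225) and MYSERV6-int 2.23 (past the threshold, FDR = 2.72e-05) for P5 against P4 in F3, then MYSERV-int -0.94 and MYSERV6-int -0.96 for the interaction in F3, then MYSERV6-int 0.24 for TBT in F3 P6. With the same total in every library, the totals gave MYSERV16_I-int -0.013 for TBT in F1 P4, then MYSERV6-int -0.028 for TBT in F1 P5, then MYSERV16_I-int 0.12 (past the threshold, FDR = 0.000137) and MYSERV6-int -0.011 (no longer past the threshold, FDR = 0.733) for P5 against P4 in F1, then MYSERV16_I-int 0.039 for the interaction in F1, then MYSERV16_I-int 0.23 and MYSERV6-int 0.022 for TBT in F3 P4, then MYSERV-int 0.030 for TBT in F3 P5, then MYSERV-int -0.59 (past the threshold, FDR = 9.9e-05), MYSERV16_I-int 0.30 (past the threshold, FDR = 0.0138) and MYSERV6-int 0.14 for P5 against P4 in F3, then MYSERV6-int -0.20 for the interaction in F3. With the quasi-likelihood test of edgeR, the totals gave MYSERV6-int -0.034 for TBT in F1 P5, then MYSERV16_I-int 0.057 (past the threshold, FDR = 0.0265) for P5 against P4 in F1, then MYSERV16_I-int 0.021 for the interaction in F1, then MYSERV16_I-int 0.21 and MYSERV6-int 0.013 for TBT in F3 P4, then MYSERV-int 0.049 for TBT in F3 P5, then MYSERV-int -0.72 (past the threshold, FDR = 5.41e-05), MYSERV16_I-int 0.16 and MYSERV6-int 0.0027 for P5 against P4 in F3, then MYSERV6-int -0.23 for the interaction in F3. With the likelihood ratio test of edgeR, the totals gave MYSERV6-int -0.034 for TBT in F1 P5, then MYSERV16_I-int 0.057 (past the threshold, FDR = 0.0386) for P5 against P4 in F1, then MYSERV16_I-int 0.021 for the interaction in F1, then MYSERV16_I-int 0.21 and MYSERV6-int 0.013 for TBT in F3 P4, then MYSERV-int 0.050 for TBT in F3 P5, then MYSERV-int -0.72 (past the threshold, FDR = 2.16e-08), MYSERV16_I-int 0.17 and MYSERV6-int 0.0026 for P5 against P4 in F3, then MYSERV6-int -0.23 for the interaction in F3. With median-ratio size factors, the totals gave MYSERV6-int -0.032 for TBT in F1 P5, then MYSERV16_I-int 0.042 for P5 against P4 in F1, then MYSERV16_I-int 0.011 for the interaction in F1, then MYSERV16_I-int 0.22 and MYSERV6-int 0.0088 for TBT in F3 P4, then MYSERV-int 0.075 for TBT in F3 P5, then MYSERV-int -0.75 (past the threshold, FDR = 2.33e-05) and MYSERV16_I-int 0.14 for P5 against P4 in F3, then MYSERV6-int -0.15 for the interaction in F3, then MYSERV6-int 0.00047 for TBT in F3 P6. With only loci tested singly, the totals gave MYSERV6-int -0.023 for TBT in F1 P5, then MYSERV16_I-int -0.15 (past the threshold, FDR = 0.000403) for P5 against P4 in F1. With a random effect of the number before the hyphen in the label, the totals gave MYSERV6-int -0.0044 for TBT in F1 P5. With each intron interval counted once, the totals gave MYSERV6-int 0.024 for P5 against P4 in F1, then MYSERV16_I-int 0.034 for the interaction in F1, then MYSERV16_I-int 0.029 and MYSERV6-int 0.29 for P5 against P4 in F3, then MYSERV6-int -0.16 for the interaction in F3, then MYSERV6-int 0.019 for TBT in F3 P6. With only loci outside genes, without TBT replicates 7 and 8 together, the totals gave MYSERV6-int -0.058 for TBT in F1 P6. With only loci outside genes, without TBT replicates 5 and 9 together, the totals gave MYSERV-int 0.15, MYSERV16_I-int 0.20 and MYSERV6-int 0.37 for TBT in F3 P4, then MYSERV-int 2.19 (past the threshold, FDR = 0.000358), MYSERV16_I-int 2.08 (past the threshold, FDR = 0.000134) and MYSERV6-int 2.21 (past the threshold, FDR = 0.000111) for P5 against P4 in F3, then MYSERV-int -0.67 and MYSERV6-int -1.003 for the interaction in F3. Without TBT replicates 5 and 9 together, the totals gave MYSERV16_I-int 0.22 for TBT in F3 P4, then MYSERV-int -0.78 (past the threshold, FDR = 0.0113) and MYSERV16_I-int 0.033 for P5 against P4 in F3. Without TBT replicate 5 and DMSO replicates 1 and 2 together, the totals gave MYSERV-int 0.14, MYSERV16_I-int 0.15 and MYSERV6-int 0.27 for TBT in F3 P5. With only loci outside genes, without TBT replicate 5 and DMSO replicates 1 and 2 together, the totals gave MYSERV-int 0.31, MYSERV16_I-int 0.64 and MYSERV6-int 0.54 for TBT in F3 P5. With the replicate block, the totals gave MYSERV-int -0.91 (past the threshold, FDR = 0.0373) for P5 against P4 in F3. Without loci in Fkbp6, the totals gave MYSERV-int -0.076 for the interaction in F3. Leaving out 1 library at a time gave MYSERV-int for P5 against P4 in F3 -0.999 to -0.73, MYSERV16_I-int for P5 against P4 in F3 -0.16 to 0.16, MYSERV-int for TBT in F1 P5 -0.010 to 0.11, MYSERV6-int for TBT in F1 P5 -0.029 to 0.044, MYSERV-int for TBT in F3 P5 -0.35 to 0.42, MYSERV16_I-int for TBT in F3 P5 -0.48 to 0.23, MYSERV6-int for TBT in F3 P5 -0.49 to 0.11, MYSERV6-int for TBT in F3 P6 -0.030 to 0.0068, MYSERV16_I-int for the interaction in F1 -0.020 to 0.019, MYSERV16_I-int for the interaction in F3 -0.42 to 0.23, MYSERV6-int for the interaction in F3 -0.063 to 0.32, the number of loci called for P5 against P4 in F3 4 to 32 (beside 0.285% to 2.24% of all loci higher and 0% to 0.0898% lower), the number of loci called for TBT in F1 P5 0 to 2 (beside 0.00329% to 0.0658% of all loci higher and 0% to 0.0106% lower) and the number of loci called for TBT in F3 P6 1 to 2 (beside 0.00191% to 0.117% of all loci higher and 0.00953% to 0.021% lower).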
